A study of Mus musculus with 6 samples.

Results

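The nuclear-encoded subunit genes of respiratory complex I were followed through a fractionation of HL-1 nuclei. The rule uses name and type and no measured value: it takes each protein-coding gene whose symbol begins with Ndufa, Ndufb, Ndufc, Ndufs or Ndufv followed by a digit. Described here are 36 such genes among 28660 loci, each listed once, and 35 of them had a mean of at least 0.5 FPKM over both fractions and entered the counts below. The member below that level was Ndufa4l2. The acyl carrier subunit Ndufab1 and the Ndufaf assembly factors lie outside the rule and are given beside the members. Ndufb1 was not analysed here.

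Complex I, the NADH:ubiquinone oxidoreductase of the inner mitochondrial membrane, takes electrons from NADH, passes them along flavin and iron-sulphur clusters to ubiquinone, and pumps protons. It is L-shaped. A hydrophilic arm carries the N module, which oxidises NADH, and the Q module, which reduces ubiquinone, while a membrane arm carries the proton channels. The core subunits do the catalysis and have bacterial counterparts, and the supernumerary subunits surround them. The messages described here are made in the nucleus and translated outside it, and the membrane core is encoded by mitochondrial DNA. Cardiac muscle is rich in the complex.

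HL-1 is an established mouse cardiomyocyte line of atrial origin, grown in Claycomb medium with serum, glutamine and norepinephrine, and no group carried a further treatment or genetic change. Nuclei were released with detergent and split into soluble nuclear RNA and RNA of the chromatin pellet. Each fraction gave 3 libraries, and synthetic ERCC RNAs were added to both before extraction. The authors gave 1 value per fraction and locus in FPKM (fragments scaled by the length of the transcript and the size of the library), so the replicates cannot be told apart, and neither can fewer nuclei holding a message and less of it per nucleus. No p-value, SD between replicates or depth can be given, and every difference below is a description of pooled values. Of the markers listed, 12 of 13 cardiomyocyte and atrial, 6 of 7 fibroblast, 4 of 5 immune and 3 of 4 ventricular ones were found. All 12 cardiomyocyte and atrial markers found passed the level filter, from Myl7 at 1119 and Tnnt2 at 1022 soluble FPKM downwards. The lowest were Sln at 12.5, Actn2 at 4.67 and Nppa, the atrial natriuretic peptide gene, at 1.63. The ventricular markers Myl2, Myl3 and Myh7 had 0.543 or lower and 0 of 3 passed. Of 6 fibroblast markers 3 passed, Col3a1 at 340.5, Pdgfra at 3.59 and Dcn at 1.74 soluble FPKM, and the others had 0.707 or less. Of 6 endothelial markers 2 passed, Kdr at 5.52 and Tek at 1.08, and the others had 0.350 or less. Of 4 immune markers 1 passed, Cd68 at 0.711, and the others had 0.0916 or less in the soluble extract. The part of such cells in the results was not tested.

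The comparison asks which messages are retained on chromatin and which come off it. The fold used is the log2 of pellet FPKM times a spike-in factor of 3.37 over soluble FPKM (the spike-in scale), and without the factor (the FPKM scale) each value is lower by 1.75. Complex I messages were lower in the pellet throughout. Of the 35 genes, 29 were at least 2-fold lower in the pellet, where 10.5% of all 13917 loci that passed the level filter and 10.6% of the 11397 protein-coding genes were. None of the 35 (0) was at least 2-fold higher, against 31.9% of all loci, and 6 lay within 2-fold. The median log2 fold was -1.59, with quartiles at -1.80 and -1.36, against 0.41 for all loci and 0.26 for protein-coding genes. This median corresponds to 3.02-fold less signal in the pellet than in the soluble extract. All 35 lay below the protein-coding median, and 34 below its lower quartile of -0.43. Only 65 protein-coding genes had a lower value than the lowest member. On the FPKM scale all 35 were at least 2-fold lower, where 61.2% of all loci were, so there the count says little about these genes.

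The members spread more than spike-ins of the same range of levels. Their log2 folds ran from -1.98 to -0.33 with an SD of 0.42 (n = 35 genes), while 13 spike-ins of the same range of levels (means of 13.0 to 217 FPKM) had an SD of 0.09 and ranged from -0.22 to 0.13. The spread among members was 4.49 times that of the spike-ins. The scatter of the spike-ins does not cover variation between cultures or fractionations. Between neighbours in the order of folds, 30 of 34 gaps were smaller than the SD of the spike-ins, so the order of adjacent genes is not resolved. The widest gap, 0.35, set Ndufs1 apart from Ndufs3.

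**Figure D1:**
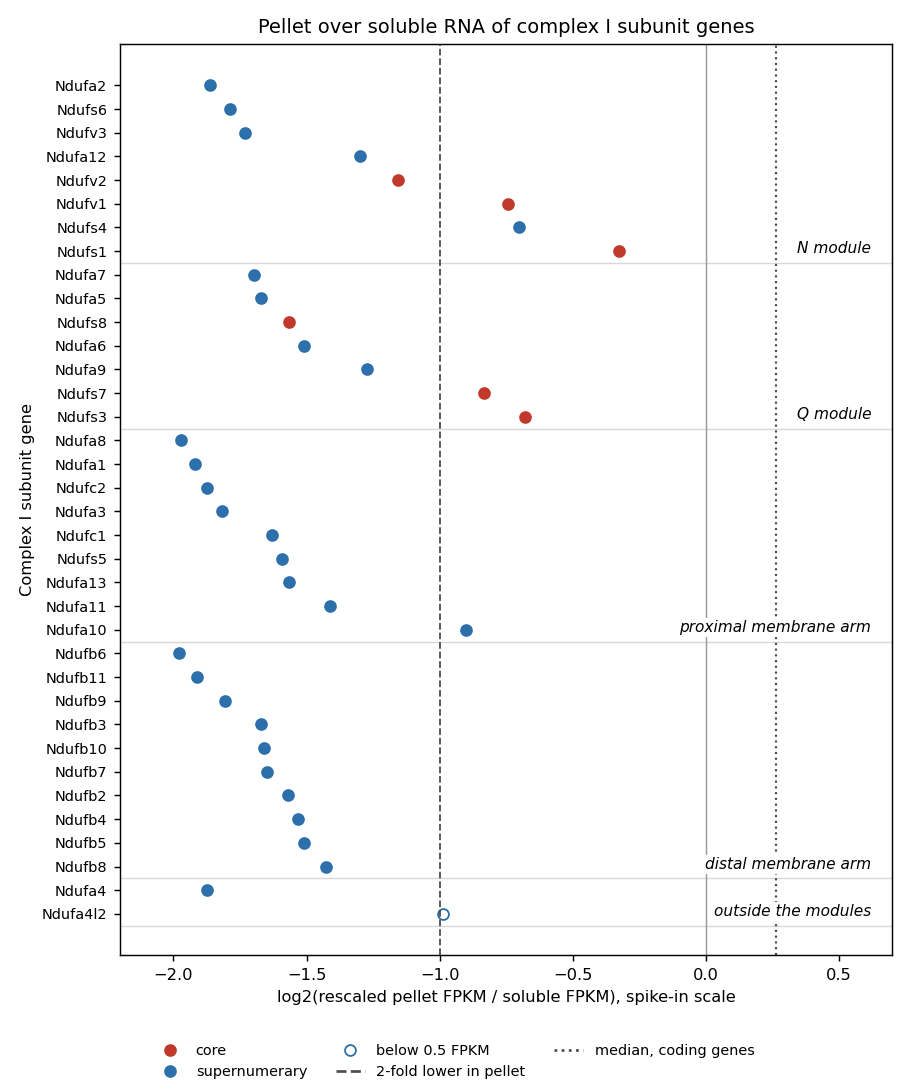
Log2 of rescaled pellet over soluble FPKM (x axis, spike-in scale) for 36 complex I subunit genes (y axis), grouped by position in the complex, 1 pooled value per point and no replicate error. Red points are core and blue points supernumerary subunits, the open point is Ndufa4l2 below 0.5 FPKM, the dashed line marks 2-fold lower in the pellet and the dotted line the protein-coding median of 0.26; the distal membrane arm lies wholly left of the dashed line and Ndufs1 lies furthest right.

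The N module, at the tip of the hydrophilic arm, spread most. Of its 8 genes, 5 were at least 2-fold lower and 3 within 2-fold, with a median of -1.23. Ndufs1, encoding the large iron-sulphur subunit that receives electrons from the flavin site (ENSMUSG00000025968.12, RefSeq span chr1:63143592-63176822 on GRCm38.p6, the build mm10), had 117 FPKM in the soluble extract and 27.7 in the pellet. Its log2 fold of -0.33 was the highest of all members, and 44.3% of its signal (rescaled pellet as a percentage of rescaled pellet plus soluble) lay in the pellet. Even so, 28.3% of protein-coding genes were lower, which puts it below the middle of the coding genome. Ndufv1, the subunit that binds NADH and the flavin, had 144 and 25.5 FPKM and a log2 fold of -0.74. Ndufs4, a supernumerary subunit whose loss causes a Leigh-like encephalopathy in mice, had 22.1 and 4.02 FPKM, the lowest soluble level among the 35, and a log2 fold of -0.70. These 3 were the members of the module within 2-fold.

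The other N module genes were at least 2-fold lower in the pellet. Ndufv2, the partner of Ndufv1 with an iron-sulphur cluster of its own, had 117 soluble FPKM, matching Ndufs1, but 15.6 in the pellet and a log2 fold of -1.16. Equal soluble levels thus went with unequal pellet levels. Both genes share a locus with other genes, and how fragments were divided there is not known. Ndufa12, a sequence relative of the assembly factor Ndufaf2, had -1.30, and Ndufv3 had -1.73. Ndufs6, which carries zinc, had -1.79, and Ndufa2, with a thioredoxin-like fold, had -1.86 (102 soluble and 8.34 pellet FPKM).

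In the Q module, where ubiquinone is reduced, the core genes Ndufs7 and Ndufs3 stood apart from the rest. Of 7 genes described, 5 were at least 2-fold lower and 2 within 2-fold, with a median of -1.51. The core subunit Ndufs7, which carries the last iron-sulphur cluster before ubiquinone, had 53.3 soluble and 8.88 pellet FPKM and a log2 fold of -0.83. Ndufs3, also a core subunit, had 44.8 and 8.30 FPKM and a log2 fold of -0.68. The core subunit Ndufs8, which carries the iron-sulphur clusters between the N module and the quinone site, stood apart from them at -1.57 (60.2 and 6.02 FPKM).

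The supernumerary Q module genes lay together with Ndufs8. Ndufa7 had -1.70, Ndufa5 -1.67, Ndufa6 -1.51 and Ndufa9 -1.27. Ndufa6 encodes a LYR-motif protein that docks an acyl carrier, and Ndufa9 a protein near the junction of both arms. Ndufa5 was among the most abundant members, with 324 FPKM in the soluble extract and 30.2 in the pellet.

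The proximal membrane arm, built around the mitochondrially encoded ND1 and ND2 proteins, was at least 2-fold lower in the pellet in 8 of 9 genes, with a median of -1.63. Ndufa8, a twin cysteine motif protein, had 62.0 soluble and 4.69 pellet FPKM and a log2 fold of -1.97. Ndufa1, a small single-pass membrane subunit on the X chromosome, had 177 and 13.8 FPKM and -1.92. Ndufc2 had -1.87, Ndufa3 -1.82, Ndufc1 -1.63, Ndufs5 -1.59 and Ndufa13, also known as GRIM-19, -1.57. Ndufa11 had the lowest pellet level of the 35 genes, at 2.91 FPKM, with a log2 fold of -1.41. The exception was Ndufa10, a subunit related to nucleoside kinases, which had 259 soluble and 41.1 pellet FPKM and a log2 fold of -0.90.

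The distal membrane arm, built around ND4 and ND5, was the most uniform group. None of its genes described here encodes a core subunit, whereas Ndufs1, Ndufv1 and Ndufv2 of the N module do. All 10 of its Ndufb genes were at least 2-fold lower, with a median of -1.65, a range from -1.98 to -1.43 and an SD of 0.18 across genes, against 0.57 in the N module. Ndufb6 (ENSMUSG00000071014.6, RefSeq span chr4:40270591-40279421) had 131 soluble and 9.82 pellet FPKM and the lowest log2 fold of all members, -1.98, with 20.2% of its signal in the pellet. Ndufb11, an X-linked gene whose human counterpart is linked to cardiomyopathy, followed at -1.91 with 88.0 and 6.93 FPKM. Ndufb9, another LYR-motif protein, had -1.81. Ndufb3, Ndufb10 and Ndufb7 lay close together at -1.67, -1.66 and -1.65. Ndufb2 had -1.57, Ndufb4 -1.53, Ndufb5 -1.51 and Ndufb8 -1.43.

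Outside these modules, Ndufa4, which is now counted with complex IV, had the highest soluble level of all members, at 402 FPKM, with 32.5 in the pellet and a log2 fold of -1.87. Its hypoxia-induced relative Ndufa4l2 had 0.222 and 0.0332 FPKM and a log2 fold of -0.99, at a level where no fold was counted. Ndufab1, left out by the name rule though it is a subunit, had 100.4 and 12.7 FPKM and -1.22.

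Core subunits stood nearer to balance than supernumerary ones. Of 6 core genes 2 were at least 2-fold lower (Ndufs8 and Ndufv2), and their median was -0.79. Of 29 supernumerary genes 27 were, with a median of -1.66, and the others were Ndufa10 and Ndufs4. The core values ran from -1.57 to -0.33 and the supernumerary values from -1.98 to -0.70, so both groups overlap. The split rests on pooled values and carries no test.

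**Figure D2:**
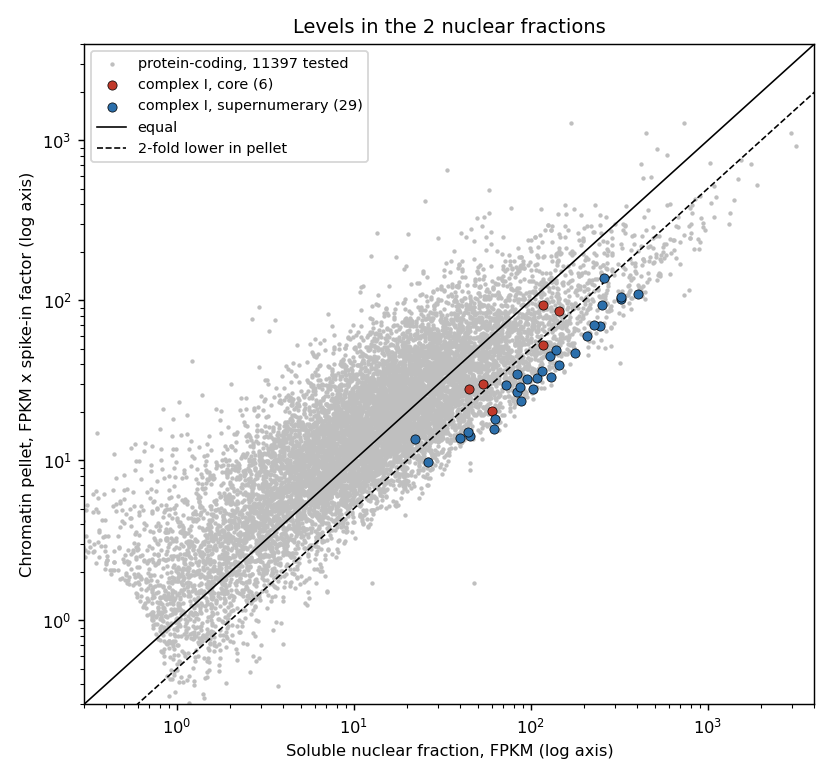
FPKM in the soluble extract (x axis) against pellet FPKM times the spike-in factor (y axis), both on log axes from 0.3 to 4000, for protein-coding genes that passed the level filter (grey, of which 69 lie outside the axes) and 35 complex I genes (red core, blue supernumerary). The solid line marks equal values and the dashed line 2-fold lower in the pellet; 29 of the 35 lie on or under the dashed line, along the lower edge of the cloud.

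Although complex I subunits enter the complex in fixed proportions, the nuclear RNA levels of the 35 genes differed widely. FPKM is scaled by length, which allows only a rough comparison of genes. How fragments were divided is not known for the 11 of 36 members that share a locus, and 5 members have named copies. Soluble levels ran from 22.1 FPKM (Ndufs4) to 402 (Ndufa4, now counted with complex IV), a ratio of 18.2, with a median of 108. Pellet levels ran from 2.91 (Ndufa11) to 41.1 (Ndufa10), a ratio of 14.1. After Ndufa4 the highest soluble levels were those of Ndufc1 and Ndufa5, both at 324. At the low end, Ndufa11 (26.1) and Ndufb4 (39.9) followed Ndufs4. Levels in both fractions went together over the 35 genes, with a Pearson r of 0.92 of log2 values and a Spearman rho of 0.94; the points share the same 2 sets of pooled libraries, and genes are not independent replicates. The 36 members summed to 0.488% of all FPKM in the soluble extract and 0.0585% in the pellet. These sums are on the FPKM scale, without the spike-in factor. Single loci weigh heavily in the totals, with up to 116696 FPKM in the soluble extract and 84861 in the pellet.

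Long members lay nearer to balance, whereas protein-coding genes of 30000 bp or more lay above it, with a median log2 fold of 0.67. RefSeq gave a span for all 36 members and 94.1% of the protein-coding genes. The 35 members had a median span of 7690 bp (from 2256 bp for Ndufa2 to 100300 bp for Ndufs4), against 24344 bp for protein-coding genes. Across the 35 genes the log2 fold and the log10 of the span had a Pearson r of 0.58 and a Spearman rho of 0.42, and across 10723 protein-coding genes 0.41 and 0.44. Without the 3 members of 30 kb or longer (Ndufs1, Ndufa10 and Ndufs4) they were 0.31 and 0.26 (n = 32), a subset chosen after the values were seen. For the fold and the log10 of the mean FPKM, Pearson r was -0.23 and Spearman rho -0.26 among members, -0.27 and -0.31 without the same 3, and -0.35 and -0.32 across protein-coding genes.

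Within each class of span the median log2 fold was lower for members than for protein-coding genes. Under 5000 bp it was -1.66 against -0.68, and from 30000 bp on -0.70 against 0.67. Of 9 members under 5000 bp all 9 were at least 2-fold lower, against 37.6% of 1161 protein-coding genes of that span. Between 5000 and 10000 bp it was 13 of 15 against 18.7%, and the exceptions were the core genes Ndufv1 and Ndufs7. Between 10000 and 30000 bp it was 7 of 8 against 8.68%, and the exception was the core gene Ndufs3. From 30000 bp on it was 0 of 3 against 1.96%. The 6 genes within 2-fold were therefore 4 core subunits and the supernumerary Ndufa10 and Ndufs4, both with spans above 30000 bp.

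**Figure D3:**
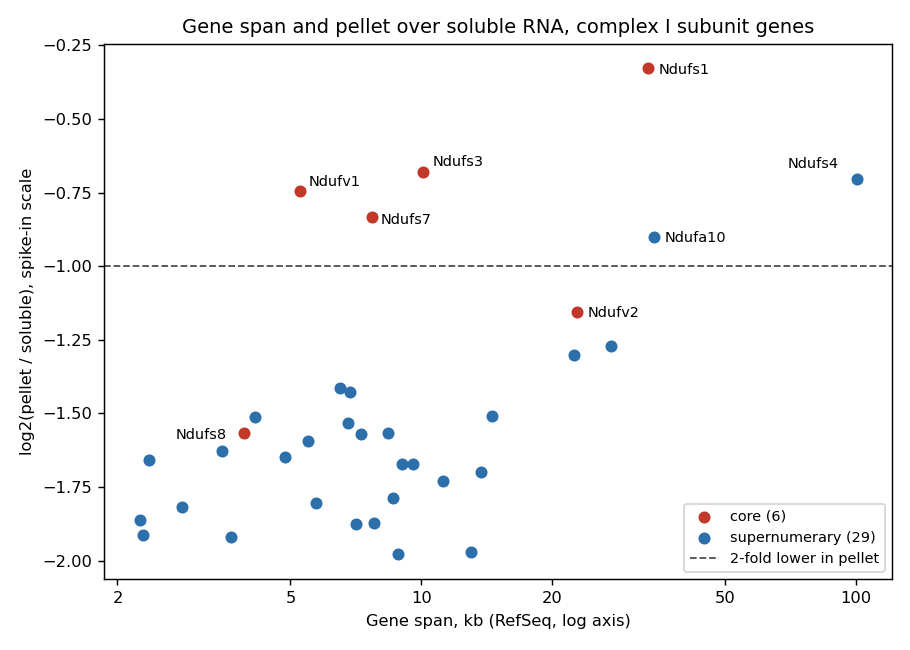
Gene span in kb from RefSeq (x axis, log axis) against the log2 of rescaled pellet over soluble FPKM (y axis, spike-in scale) for 35 complex I genes, 1 pooled value per point. Red points are 6 core and blue points 29 supernumerary subunits; above the dashed line of 2-fold lie 4 core genes and Ndufa10 and Ndufs4.

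The high level of many members also bears on the background. Of the 280 protein-coding genes with a mean of at least 120 FPKM, 61.4% were at least 2-fold lower, beside 6 of 7 members. Between 60 and 120 FPKM it was 35.4% beside 8 of 10 members, and between 20 and 60 FPKM 17.0% beside 14 of 16. At the highest levels most other abundant messages were lower too.

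Start regions show what some of the genes share in sequence. RefSeq (GRCm38.p6) gave 34 windows, each from 250 bases before to 50 after a transcription start, for 32 members. No window was used for Ndufa2, Ndufa4l2, Ndufb9 or Ndufs1. The letters AAGATGGC, a core of the motif of the zinc finger factor YY1, stood on either strand in 7 of 34 windows (20.6%), against 4.47% of 11103 windows of protein-coding genes that passed the filter and 2.75% of all 32851 windows. In all 7 they lay on the gene's own strand and began 23 to 39 bases after the start. Of the 496 protein-coding windows with the letters, 46.6% held them after the start on the gene's strand. The letters include an ATG, and whether translation starts there was not examined. The 7 stretches of 30 bases are shown for this common position, with the motif in capitals:
Ndufa3 (chr7:3617384-3617413, plus strand): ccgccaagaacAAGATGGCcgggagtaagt
Ndufa9 (chr6:126849097-126849126, minus strand): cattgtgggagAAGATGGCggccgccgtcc
Ndufb8 (chr19:44555393-44555422, minus strand): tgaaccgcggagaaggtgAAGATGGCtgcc
Ndufc1 (chr3:51408915-51408944, minus strand): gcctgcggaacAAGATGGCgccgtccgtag
Ndufs4 (chr13:114388045-114388074, minus strand): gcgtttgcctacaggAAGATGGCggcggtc
Ndufs6 (chr13:73328433-73328462, minus strand): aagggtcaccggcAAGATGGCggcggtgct
Ndufs7 (chr10:80249462-80249491, plus strand): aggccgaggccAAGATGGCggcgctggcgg

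Members with these letters did not stand apart by fold. The 7 had log2 folds from -1.82 (Ndufa3) to -0.70 (Ndufs4) with a median of -1.43, and the other 25 with a window that passed the filter had a median of -1.59 and a range from -1.98 to -0.68. The core of the motif of NRF1, a factor known for activating respiratory chain genes, GCATGCGC on either strand, stood in 3 of 34 windows (8.82%), against 5.49% of the protein-coding windows. They are shown because NRF1 is the best known regulator of this family:
Ndufa6 (chr15:82354356-82354385, minus strand): tccgcggtagaGCATGCGCattgcagagcc
Ndufa8 (chr2:36049328-36049357, minus strand): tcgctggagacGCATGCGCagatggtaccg
Ndufa11 (chr17:56717693-56717722, plus strand): ctgcactgcgcGCATGCGCgcacgccttgt

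In Ndufa11 the same letters also occur on the other strand, overlapping those shown. The ETS letters CCGGAAGT, bound by the GABP factor, stood in 1 of 34 windows (2.94%), that of Ndufs3, against 8.16%. The letters CCAAT stood in 10 windows (29.4% against 38.3%) and TATAAA in 5 (14.7% against 6.68%), both strands searched. A match describes letters only. The windows had a median GC content of 59.0%, against 61.3% for the protein-coding windows.

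Several members lie in loci that the table merges with other genes. The coordinates of 11 of the 36 members were shared with 24 other loci, 20 of which passed the level filter. The sources used here do not say how fragments were divided among them. Of the 20, 19 lay beside a member that passed too, and 18 of the 19 had a higher log2 fold than that member and 1 a lower one. Most genes would lie above these members in any case. The share of protein-coding genes below the member ran from 0.57% for Ndufb6 to 28.3% for Ndufs1. Ndufb6 (-1.98), the lowest member, shared its coordinates with Topors at 0.40 and the antisense Toporsos at -0.67. Ndufb2 (-1.57) shared its coordinates with Braf, a kinase gene, which had 13.9 soluble and 19.4 pellet FPKM and a log2 fold of 2.23. Ndufb8 (-1.43) shared them with Gm20538 at 2.45 and with Sec31b, a vesicle coat gene below the level filter at 0.195 and 0.622 FPKM. Over the 19 pairs the difference in log2 fold ran in size from 0.26 (Ptpmt1 and Ndufs3) to 4.34 (Gm20342 and Ndufs1), so some genes of a merged locus lay near each other and others far apart.

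Ndufs1, the highest member, lay in the most crowded locus. Eef1b2, a translation elongation factor gene, had 634 and 70.9 FPKM there and a log2 fold of -1.41, the only one of the 19 below its member. The chromatin remodelling gene Ino80d had 1.78 and its antisense neighbour Ino80dos 2.58. The small nucleolar RNA Snora41 had 17.9 soluble and 81.3 pellet FPKM and a log2 fold of 3.93, and the noncoding Gm20342 had 4.01. The part of these pellet-rich neighbours in the value of Ndufs1 was not tested. Ndufs3 (-0.68) shared its coordinates with Kbtbd4 at 0.10 and with Ptpmt1 at -0.42. Ndufv1, Ndufs7, Ndufs4 and Ndufa10, also within 2-fold, shared theirs with no other locus.

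Ndufa11, Ndufa12, Ndufb4, Ndufs5 and Ndufs6 have copies that carry their name in RefSeq, so their values are uncertain where fragments were split between copies. All 5 were at least 2-fold lower, with log2 folds from -1.79 to -1.30.

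The other respiratory complexes lay on the same side. Of complex II genes 3 of 4 were at least 2-fold lower and of complex III 9 of 9, beside 10.5% of all loci. Of complex IV 11 of 12 were, and of complex V (ATP synthase) 14 of 16. In none of them was a gene at least 2-fold higher (0), beside 31.9% of all loci. These messages were abundant, with median soluble levels of 194, 164, 225 and 229 FPKM. Of protein-coding genes with a mean of 60 to 120 FPKM 35.4% were lower too, and of those with at least 120 FPKM 61.4%. The medians of complexes II to V were -1.28, -1.66, -1.77 and -1.46, and the complex I median of -1.59 lies between these. Within complex II the catalytic subunit gene Sdha was highest at -0.67 and Sdhd lowest at -1.33. In complex III the range ran from Uqcrq, a small subunit, at -2.39 to Uqcrc1, the larger core protein, at -1.11. In complex IV it ran from Cox6b1 at -1.96 to Cox7c at -0.39, and in complex V from Atp5e at -2.04 to Atp5f1 at -0.93.

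The mitochondrial genes of complex I, whose RNA is made and kept in mitochondria, were present in both nuclear extracts and lower in the pellet. The 5 that passed the filter were all at least 2-fold lower, with a median of -2.07, beside 10.5% of all loci. Of protein-coding genes with a mean of at least 120 FPKM, a level these 5 exceeded, 61.4% were lower too. Soluble and pellet FPKM were 319.6 and 12.1 for mt-Nd4 (log2 fold -2.97), 733 and 31.9 for mt-Nd5 (-2.77), and 614 and 43.4 for mt-Nd1 (-2.07). For mt-Nd2 they were 367 and 26.2 (-2.06), and for mt-Nd6, which alone is read from the other strand, 369 and 39.6 (-1.47). mt-Nd3 (0.274 and 0.0321) and mt-Nd4l (0.437 and 0.0330) were below the filter. The part of RNA from outside the nucleus in the folds of the nuclear-encoded members was not tested.

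Messages for assembly factors, which build the complex but are not part of it, lay near balance on the spike-in scale. Of 14 that passed the filter, 2 were at least 2-fold lower and 1 at least 2-fold higher, beside 10.5% and 31.9% of all loci, so the share of lower genes was near the background. The median was -0.05, against 0.41 for all loci. With the spike-in factor from the median ratio, or a pseudocount of 1, 1 was lower. Without the factor 13 of 14 were, where 61.2% of all loci were, and the median was -1.80. They were also less abundant, with soluble levels from 3.18 to 29.5 FPKM. Ndufaf2, which holds the place of Ndufa12 during assembly, was lowest at -1.35 (23.5 and 2.73 FPKM), close to Ndufa12 itself at -1.30. Ndufaf3 followed at -1.03. At the other end Tmem186 had 1.15, which turns to -0.60 on the FPKM scale. The ranges of assembly factors and subunits overlapped between -1.35 and -0.33.

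**Figure D4:**
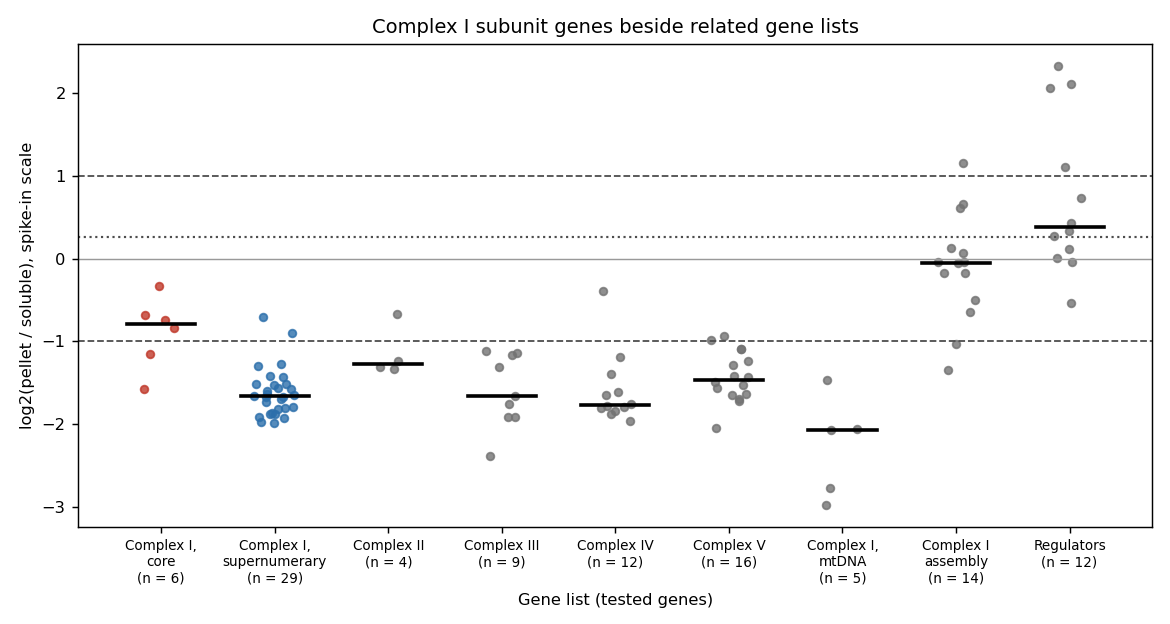
Log2 of rescaled pellet over soluble FPKM (y axis, spike-in scale) for genes that passed the level filter in each list (x axis, n in the axis labels), 1 pooled value per point, black bars the medians, horizontal jitter without meaning. Dashed lines mark 2-fold and the dotted line the protein-coding median; complex I subunits and complexes II to V lie below 0, assembly factors have a median of -0.05 and regulators 0.38.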

How the data were processed

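Libraries came from 3 chromatin pellet and 3 soluble nuclear extracts of HL-1 cells. Per the submitters' processing notes, HISAT2, SAMtools, Cufflinks, bedtools and Cuffdiff were used with mm10, and versions are not given. The authors deposited 1 table with pooled FPKM per fraction and, per the file headers, a rescaled pellet signal, a total signal, their ratio, and log10 values of the total and the ratio. Only FPKM entered the results. The rescaled signal equals pellet FPKM times 3.37, a least-squares line without intercept fitted to the soluble and pellet FPKM of 82 spike-ins. The table had 30687 lines, of which 1945 repeats were dropped. Starts count from 0 and were raised by 1. No value was 0 and no pseudocount was added. A locus passed with a mean of at least 0.5 FPKM and was counted at 2-fold. Calculations used Python 3.11.15, pandas 2.3.3, numpy 2.4.6 and scipy 1.17.1, and were tested on simulated data. Any complex I member may be named; of each related list the genes with the lowest and highest fold are, with Ndufab1, the mitochondrial genes and genes sharing a locus. Ndufaf3 and the markers were named after their values were seen. Of 37 genes found by the rule 1 is not reported here. Members and lists were chosen with earlier results of these data known. Transcript length, exon number and proteins were not analysed here.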

Additional observations from a re-analysis of the deposited data

How the results depend on the processing

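Across the filters, thresholds, factors and gene sets tried, no complex I gene was at least 2-fold higher in the pellet. The count of 29 lower genes, beside 10.5% of all loci, became 35 on the FPKM scale, beside 61.2%. It was 34 at 1.5-fold and 18 at 3-fold, and no share of all loci is given at these thresholds. At 2-fold it was 28 without Ndufa4 and Ndufa4l2 (of 34) and 21 without members that share a locus (of 25). Without members with named copies it was 24 (of 30, added after seeing the data). On the FPKM scale the medians were -3.35 for all members, -2.98 for the N module and -3.26 for the Q module. They were -3.38 for the proximal and -3.41 for the distal membrane arm, -2.54 for core and -3.41 for supernumerary subunits. Lower genes on that scale numbered 8 in the N module, 7 in the Q module and 6 in the core, beside 61.2% of all loci. At 1.5-fold they were 7 in the Q module and 5 in the core; at 3-fold 3 in the N module, 2 in the Q module, 6 in the distal arm and 0 in the core. Without members that share a locus, lower genes were 3 of 5 in the N module, 5 of 5 in the distal arm and 1 of 3 in the core, and the Q module median was -1.54. Without members with named copies, 3 of 6 N module genes were lower with a median of -0.95, and the proximal arm median was -1.82. These values differ from the main ones in scale, threshold or gene set. The part of named copies or shared loci in the moved values was not tested. The FPKM scale lowers every gene by 1.75, so all with a log2 fold between 0 and 1.75 change sign. Of the assembly factors, regulators and locus neighbours counted as at least 2-fold higher, these were Tmem186 (-0.60), Nrf1 (-0.65), Gm23264 beside Ndufv2 (-0.56) and Gm17661 beside Ndufs3 (-0.56). No paired analysis was possible because the replicates of each fraction are pooled into 1 value, which also prevents leaving out a replicate. The depth is unknown.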

Other observations

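Messages of the factors that control respiratory chain genes lay near the level of all loci. Of 12 that passed the level filter, 4 exceeded 2-fold towards the pellet (31.9% of all loci did) and 0 exceeded it towards the soluble extract; the median log2 fold was 0.38, against 0.41 for all loci. Tfam, the packaging and transcription factor of mitochondrial DNA, was lowest at -0.54 with 37.4 soluble and 7.65 pellet FPKM. Ppargc1b, a coactivator of mitochondrial biogenesis, was highest at 2.33 with 1.54 and 2.29 FPKM. The related coactivator genes Ppargc1a (15.4 and 19.6 FPKM) and Pprc1 (16.6 and 20.5 FPKM) had 2.10 and 2.06, and Nrf1 had 1.10; these 3 were named after their values were seen. On the FPKM scale the median of the list was -1.37 against -1.34 for all loci, and 8 of 12 were at least 2-fold lower, where 61.2% of all loci were.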
